A study of Mus musculus with 2 samples.

Results

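The 40 genes described here are a fixed panel of 22 genes whose transcripts are known to be abundant while a cell copies its DNA (S phase) and 18 whose transcripts are abundant from the end of DNA copying to division (G2 and mitosis, G2M). They were listed by name, and 40 of 40 were found among the 32286 features measured. Their unique molecular identifiers (UMIs, 1 per captured RNA molecule) were summed in each cell of 2 single-cell libraries of mouse embryonic skin, with 11527 control and 8514 mutant cells after filtering, of which 8748 and 5164 were dermal-like. The skin came from the dorsolateral flank at embryonic stage E13.5, when dermal condensates of the hair follicle are about to form. The mutant library held cells from littermates in which Axin2CreER, a tamoxifen-inducible Cre recombinase made in Wnt-responding cells, turned on SmoM2YFP, a constitutively active form of the Hedgehog signal transducer Smoothened fused to a yellow fluorescent protein. The control library is titled with the SmoM2YFP allele alone. Each library pooled 2 to 3 embryos, sorted for live cells, and is 1 sample, so no difference between them has a replicate check or a p-value. Axin2 is active in Wnt-responding cells of any tissue, so recombination is not limited to dermis by the promoter, and the time of tamoxifen was not given in the sources used here.

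The labels contradict each other: in both libraries the genotype field names the opposite of the title, and the groups here follow the titles. In dermal cells of the library titled mutant the YFP transcript stood at 28.7 CPM (UMIs of a gene after scaling the total of each class to the same sum) against 0.411 CPM in the library titled control. Ptch1, the Hedgehog receptor and itself a target of the pathway, stood at 245 against 5.60 CPM.

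S phase genes encode the machinery that licenses origins, supplies nucleotides and runs the replication fork, and the E2F transcription factors switch most of them on as a cell passes from G1 into S. G2M genes encode the cyclin B kinase, spindle and chromosome proteins and the ubiquitin machinery that ends mitosis. They are held down in G1 through a promoter element named CHR, and many of their promoters also hold an element named CCAAT. In embryonic skin many dermal fibroblasts cycle, whereas the cells of a dermal condensate are known to leave the cycle.

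Promoters of 34 of the 40 genes were found in the RefSeq table (build GRCm38.p6), each as a window from 250 bases before to 50 bases after the start of transcription. Fen1, Gtse1, Mcm7, Psrc1 and Uhrf1 had 2 windows, of which the first listed was used. The CHR letters (TTTGAA or TTCGAA, on either strand) were in the windows of 12 of 16 G2M genes (75%) and 4 of 18 S genes (22.2%), against 19.4% of all 27025 promoters. CCAAT, on either strand, was in 14 of 16 G2M (87.5%), 12 of 18 S (66.7%) and 37.9% of all promoters. E2F letters (TTTGGCGC, TTTCCCGC, TTTGCCGC, TTTCGCGC, TTTCGCGG, TTTGGCGG, TTTCCCGG or TTTGCCGG, on either strand) were in 8 of 18 S (44.4%), 3 of 16 G2M (18.8%) and 4.56% of all promoters. A match is a run of letters and no evidence of binding, and a window without one says only that these letters were not in it. Of the members the results below turn on, 6 are shown from 250 bases before the start up to the base before it, 5′ to 3′ on the gene's own strand, with the matched letters in capitals. Top2a (chr11:99024190-99024439, minus strand) and Ube2c (chr2:164769679-164769928, plus strand) are shown as examples of G2M promoters with CHR and CCAAT matches. Birc5, another abundant G2M member, held neither and had 1 E2F match. Hells (chr19:38930740-38930989, plus strand) holds 2 overlapping E2F matches and no CCAAT match, and is shown as an example of the 8 S promoters with E2F letters.
Top2a: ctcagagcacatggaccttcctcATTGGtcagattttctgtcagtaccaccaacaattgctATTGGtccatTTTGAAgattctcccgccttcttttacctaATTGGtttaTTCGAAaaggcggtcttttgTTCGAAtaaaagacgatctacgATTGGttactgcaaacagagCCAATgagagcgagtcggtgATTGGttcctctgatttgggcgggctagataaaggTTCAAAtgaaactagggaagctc
Ube2c: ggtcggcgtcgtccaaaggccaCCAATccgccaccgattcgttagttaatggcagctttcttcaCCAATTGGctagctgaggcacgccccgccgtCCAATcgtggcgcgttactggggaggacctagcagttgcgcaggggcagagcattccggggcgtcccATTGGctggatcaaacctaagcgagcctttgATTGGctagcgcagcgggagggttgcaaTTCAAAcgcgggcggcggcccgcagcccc
Hells: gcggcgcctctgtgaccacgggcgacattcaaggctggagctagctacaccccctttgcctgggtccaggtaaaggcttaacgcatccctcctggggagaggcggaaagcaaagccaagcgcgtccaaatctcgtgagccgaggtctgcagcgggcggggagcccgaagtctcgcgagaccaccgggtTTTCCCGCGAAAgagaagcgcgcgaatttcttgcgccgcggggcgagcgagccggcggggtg
Rrm2 (chr12:24708004-24708253, plus strand), Gtse1 (chr15:85859457-85859706, plus strand) and Psrc1 (chr3:108383554-108383803, plus strand) are the members that differed most between the libraries in dermis. For Psrc1 the CHR and E2F matches lie after the start and are not in the stretch shown. For Gtse1 1 of 3 CCAAT matches spans the start.
Rrm2: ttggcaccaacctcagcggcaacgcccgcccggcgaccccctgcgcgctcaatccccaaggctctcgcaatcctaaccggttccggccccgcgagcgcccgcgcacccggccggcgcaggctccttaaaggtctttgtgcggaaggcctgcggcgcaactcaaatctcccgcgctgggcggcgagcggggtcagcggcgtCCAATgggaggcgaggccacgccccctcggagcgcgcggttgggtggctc
Gtse1: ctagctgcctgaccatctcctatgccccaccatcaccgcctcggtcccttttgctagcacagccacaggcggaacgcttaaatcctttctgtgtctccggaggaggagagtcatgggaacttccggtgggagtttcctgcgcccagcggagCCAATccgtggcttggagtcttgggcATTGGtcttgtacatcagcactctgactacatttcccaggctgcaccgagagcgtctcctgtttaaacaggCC
Psrc1: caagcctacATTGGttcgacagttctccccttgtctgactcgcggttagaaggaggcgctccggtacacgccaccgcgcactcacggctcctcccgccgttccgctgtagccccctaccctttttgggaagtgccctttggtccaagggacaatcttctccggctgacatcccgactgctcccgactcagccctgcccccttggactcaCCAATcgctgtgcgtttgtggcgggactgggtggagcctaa

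Sums per cell were compared after each cell had been thinned at random to 3000 UMIs, because the median dermal cell held 6984 UMIs in the control and 6072 in the mutant. This left 8461 control and 4814 mutant dermal cells, and 287 and 350 were too shallow. The label dermal was given to clusters on 12 markers, so their detection is no independent check of it. In the class 12 of 12 were at 10 CPM or more in both libraries. Their summed level was 10646 CPM in the control and 7924 CPM in the mutant. The mean log2 ratio of these markers to the average cluster was below 0 in clusters 1 (-0.0624), 6 (-0.00407) and 7 (-0.437). The clusters that held the class differed: clusters 0, 7 and 17 held 2217, 978 and 450 mutant cells beside 7, 0 and 6 control cells. Intervals are 95%, exact, and cover counting error only. They are too narrow as a guide to the spread of cells, since the S sum had a standard deviation over dermal cells of 3.77 to 3.90 and the G2M sum one of 7.79 to 8.32 at means near 5.

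Dermal cells of the mutant held slightly more UMIs of both phases than control dermal cells. The S sum averaged 4.88 UMIs per cell (4.82 to 4.94) in the mutant and 4.30 (4.25 to 4.34) in the control, a ratio of 1.14 (1.12 to 1.15). The G2M sum averaged 5.64 (5.58 to 5.71) and 5.03 (4.98 to 5.08), a ratio of 1.12 (1.10 to 1.14). Without thinning, the sums per 3000 UMIs were 5.18 and 4.62 for S and 6.60 and 6.10 for G2M.

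The difference lay at the low end and in the middle of the distribution, not at its upper end. At least 5 S UMIs were in 44.8% of mutant and 35.6% of control dermal cells, and at least 5 G2M UMIs in 36.7% and 29.6%. No G2M UMI was found in 29.5% of mutant and 44.3% of control dermal cells, while 15 or more were found in 13.3% and 12.9%. For S the cells without a UMI were 7.02% and 10.2%, and those with 15 or more 2.04% and 2.49%. Split by condensate genes, mutant cells without them had no S UMI in 5.66% and no G2M UMI in 28.5%, and mutant cells with them in 11.5% and 32.5%, so for S the latter were not below the control. At least 3 S UMIs were in 68.9% of mutant cells (67.6 to 70.2) and 58.8% of control cells (57.7 to 59.9), and at least 3 G2M UMIs in 46.8% (45.4 to 48.2) and 36.4% (35.4 to 37.4). Before thinning those shares were 81.5% and 81.0% for S and 55.9% and 44.2% for G2M, so for S the difference in share was seen at matched depth. Cells at 2 or 3 UMIs, on either side of that minimum, made up 25.2% and 28.8% for S and 13.6% and 9.33% for G2M.

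**Figure D1:**
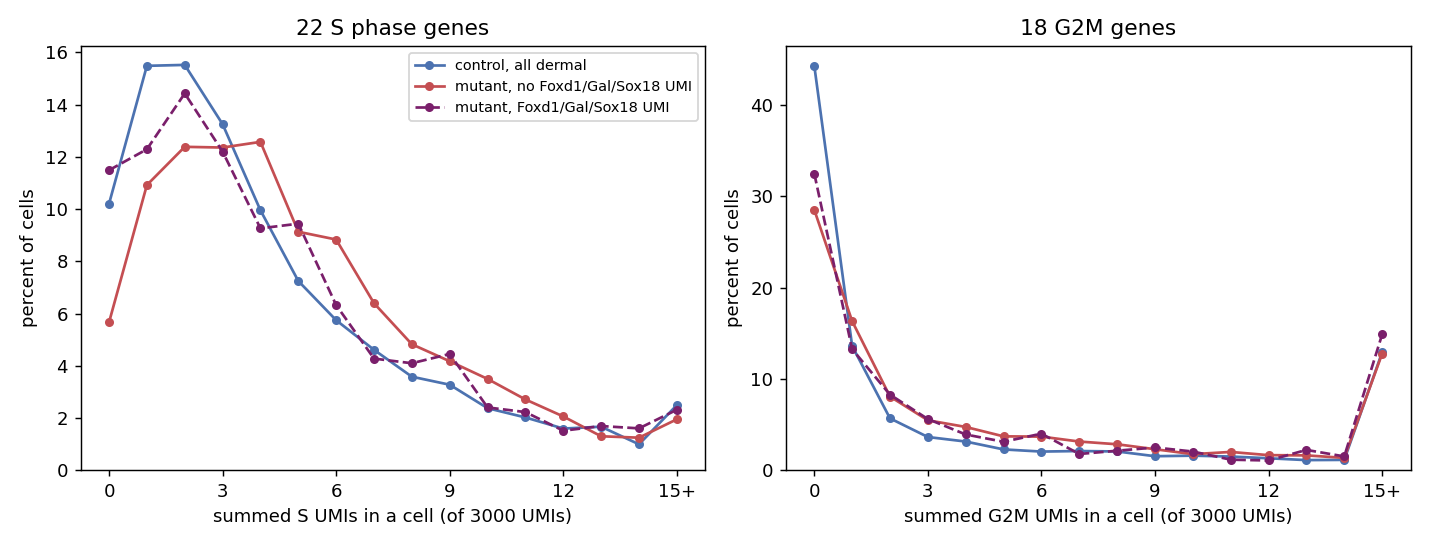
Percent of dermal cells (vertical axis) by the summed UMIs of the 22 S genes and of the 18 G2M genes per cell (horizontal axis, the last bin 15 or more), after thinning to 3000 UMIs. Control cells, mutant cells without and mutant cells with a UMI of Foxd1, Gal or Sox18 are drawn separately; at 0 G2M UMIs the control line stands highest.

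Splitting cells by both sums, 36.3% of mutant and 26.0% of control dermal cells held at least 3 UMIs of each phase, and 20.6% and 30.9% held fewer than 3 of each. The shares with many S UMIs alone (32.6% and 32.8%) and many G2M UMIs alone differed little. No UMI of either phase was found in 3.37% (2.87 to 3.91) and 6.33% (5.83 to 6.88). Cells without either were also shallower before thinning, with a median of 4386 UMIs in the mutant and 5713.5 in the control, against 7148 and 8342 in cells with many of both.

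As a gauge of free RNA, muscle cells with at least 20 UMIs of contractile genes, which should no longer cycle, were read the same way. The 27 such mutant cells averaged 0.333 S (0.152 to 0.633) and 0.370 G2M UMIs (0.178 to 0.681), and the 9 such control cells 0 S (0 to 0.410) and 1.22 G2M UMIs (0.610 to 2.19). Their median depths before thinning were 9478 and 14548 UMIs. At least 3 S UMIs were in 1 of the 27 mutant cells (3.70%, 0.0937 to 19.0), and at least 3 G2M UMIs also in 1, against 68.9% and 46.8% of mutant dermal cells. Among the 9 control cells 0 had at least 3 S UMIs, a share whose interval reaches 33.6%, and 1 had at least 3 G2M UMIs (11.1%, 0.281 to 48.2), so the control gauge is imprecise.

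Other transcripts moved with the dermal difference. Hemoglobin stood at 1163 CPM in mutant and 169 CPM in control dermal cells, genes of dissociation stress at 878 and 552 CPM, epidermal markers at 50.3 and 45.3 CPM and muscle markers at 33.8 and 41.4 CPM. In dermal cells with no hemoglobin UMI (286 mutant, 5339 control) the ratios of the means were as large, 1.14 (1.08 to 1.20) for S and 1.12 (1.06 to 1.18) for G2M. The share with at least 3 S UMIs was 72.7% against 58.9% there, but for G2M it was 40.6% against 36.4%, a difference of 4.2 points whose interval (-1.68 to 10.3) spans 0. The part of the stress genes was not tested.

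In the 7 dermal clusters with cells enough in both libraries, the mutant S mean was higher in 6, with an interval above 1 in 5 and below 1 in 1. The G2M mean was higher in 5, with an interval above 1 in 4 and below 1 in 2. The ratio ranged from 0.901 in cluster 13 to 1.72 in cluster 9 for S, and from 0.808 in cluster 16 to 2.37 in cluster 9 for G2M. The members were left out of the clustering, yet it still sorted some cells by cycle. Histone genes led cluster 13, and at least 3 G2M UMIs were in 96.1% of its control cells. The share was 91.6% in cluster 6, which had too few mutant cells for a ratio. The ratio within cluster 13 thus compares cells already alike in cycle state. The other shared clusters were mixed, with shares in control cells from 11.2% in cluster 9 to 45.2% in cluster 16. Cluster sizes are not compared.

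Gene by gene, 3 of the 40 members differed at least 1.5-fold between mutant and control dermis (1 CPM added, at least 10 CPM on either side, all UMIs of the class). All 3 were higher, where 4.06% of the 8153 genes measured were higher and 4.33% lower by the same measure. Gtse1 was under 10 CPM in the control, so it was measured only through the mutant and could not be counted as lower. The median log2 ratio was 0.26 over the S members and 0.16 over the G2M members, against 0.01 over all genes measured. Above 1 were 18 of 22 S ratios (the whole list from 0.843 to 1.51) and 15 of 18 G2M ratios (0.839 to 1.94). Rrm2 lay just inside the 1.5-fold limit and Mcm7 (1.39) just outside it.

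**Figure D2:**
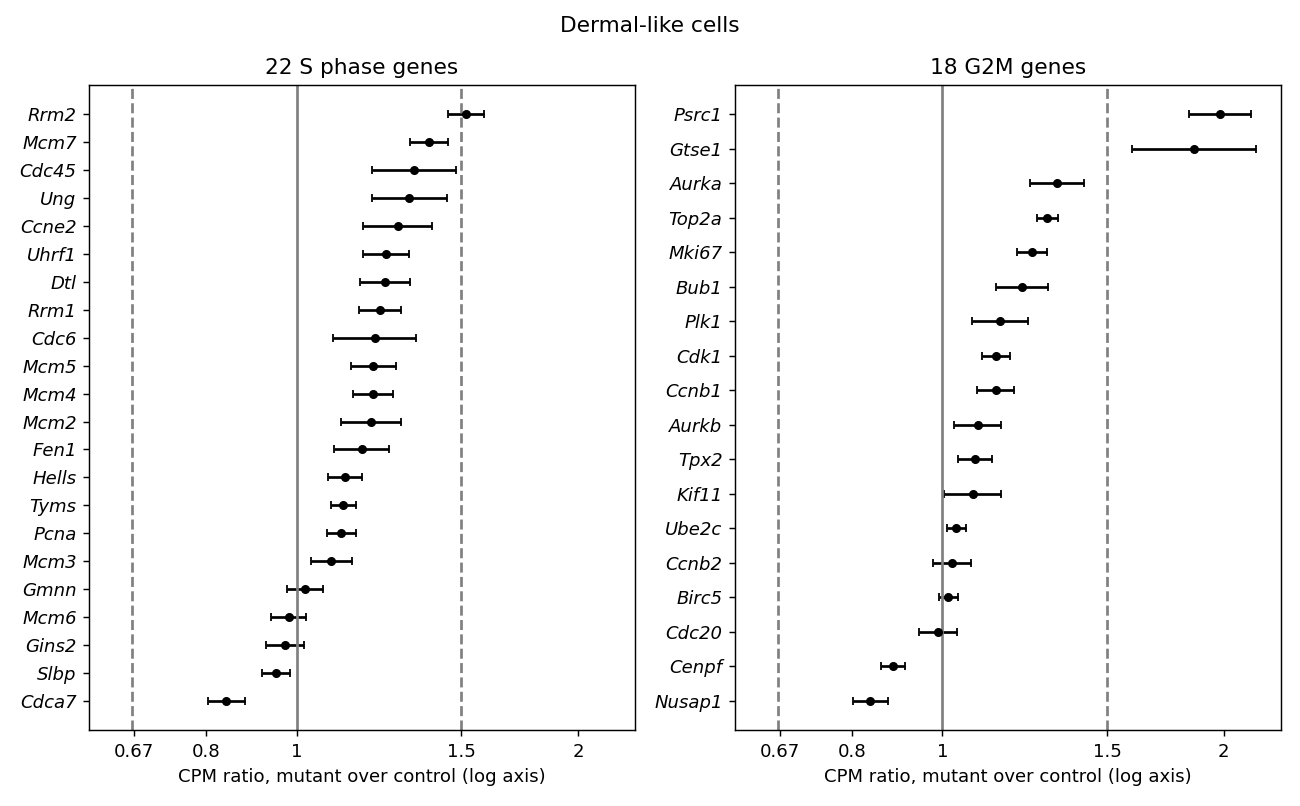
Ratio of mutant to control CPM in dermal cells (horizontal log axis) for each of the 22 S and 18 G2M members, with 95% exact intervals for counting error as bars and dashed lines at 1.5-fold either way. Most members lie between the dashed lines to the right of 1, with Rrm2 (1.52), Gtse1 (1.86) and Psrc1 (1.98) beyond.

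Among the S members, the nucleotide supply genes were all above 1. Rrm2, the regulated subunit of ribonucleotide reductase (ENSMUSG00000020649, chr12:24708241-24714146), stood at 71.3 CPM (69.2 to 73.4) in control and 108 CPM (105 to 112) in mutant dermis, 1.52-fold (1.45 to 1.59). A thinned Rrm2 UMI was found in 14.5% and 21.5% of dermal cells. Rrm1, its partner subunit, was 1.23-fold higher. Tyms, thymidylate synthase and the most abundant S member (ENSMUSG00000025747, chr5:30058202-30073617), stood at 182 CPM in control and 204 CPM in mutant, 1.12-fold (1.09 to 1.16).

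The licensing and helicase genes lay mostly above 1 by a smaller step. Of the 6 subunits of the MCM helicase, Mcm7 stood at 68.7 CPM in control and 95.2 CPM in mutant (1.39, 1.32 to 1.45), Mcm2, Mcm4 and Mcm5 were near 1.2, Mcm3 was at 1.09 and Mcm6 at 0.980. Cdc45, which binds the helicase, was at 1.34 and Cdc6, which loads it, at 1.21, while Gins2, a subunit of the GINS complex that completes the helicase, was at 0.972. Gmnn, geminin, which blocks loading a second time, was at 1.02.

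Fork and chromatin genes were spread on both sides of 1. Ung, which removes uracil from DNA, was at 1.32, Ccne2, an E-type cyclin, at 1.28, Uhrf1, which carries DNA methylation through replication, at 1.25, Dtl, a ubiquitin ligase adaptor, at 1.24 and Fen1, the flap nuclease, at 1.17. Pcna, the sliding clamp (ENSMUSG00000027342, chr2:132249162-132253314), stood at 127 CPM in control and 142 CPM in mutant, 1.12-fold (1.08 to 1.16). Hells, a chromatin remodeller, stood at 94.3 and 106 CPM (1.13). Below 1 were Slbp, the histone stem-loop binding protein (ENSMUSG00000004642, chr5:33634952-33652574; ratio 0.951, 0.919 to 0.985), and Cdca7 (98.3 CPM in control, 82.7 CPM in mutant; 0.841, 0.804 to 0.880).

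Among the G2M members, 2 genes were apart from the rest. Psrc1, a microtubule-binding protein of the mitotic spindle (ENSMUSG00000068744, chr3:108383839-108388231), stood at 21.5 CPM in control and 42.5 CPM in mutant dermis, 1.98-fold (1.84 to 2.14), with a thinned UMI in 4.99% and 10.3% of cells. Gtse1, a G2 and S phase protein that binds microtubules and p53 (ENSMUSG00000022385, chr15:85859745-85876573), stood at 5.54 CPM and 10.3 CPM, 1.86-fold (1.59 to 2.16), with a thinned UMI in 1.29% and 3.12% of cells. In epidermis Psrc1 stood at 29.5 CPM in control and 21.1 CPM in mutant, in muscle at 11.8 and 8.24 CPM and in glia at 23.7 and 23.0 CPM, so in those classes it was not higher in the mutant. Gtse1 was level in epidermis (5.77 and 5.78 CPM) and in muscle (7.62 and 7.16 CPM).

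The kinases of the G2M list and the chromosome proteins Top2a and Mki67 had ratios above 1, from 1.09 to 1.33, none past 1.5-fold. Aurka, a kinase of the spindle poles (ENSMUSG00000027496, chr2:172356190-172370535), stood at 35.6 CPM in control and 47.2 CPM in mutant (1.33, 1.24 to 1.42). Top2a, the topoisomerase that untangles chromosomes (ENSMUSG00000020914, chr11:98992943-99024189), stood at 225 and 291 CPM (1.29, 1.26 to 1.33), and Mki67, which coats mitotic chromosomes, at 114 and 142 CPM (1.25, 1.20 to 1.29). Bub1, a checkpoint kinase, was at 1.22, Plk1, a mitotic kinase, at 1.15, Ccnb1, cyclin B1, at 1.14 and its kinase Cdk1 at 1.14 (139 and 159 CPM). Aurkb, the kinase of the chromosomal passenger complex, was at 1.09, and the spindle proteins Tpx2 and Kif11 both at 1.08.

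Ube2c and Birc5, the most abundant G2M members, were nearly level. Ube2c, the ubiquitin-conjugating enzyme of the anaphase-promoting complex (ENSMUSG00000001403, chr2:164769898-164778822), had a ratio of 1.03 (1.01 to 1.06), and Birc5, survivin (ENSMUSG00000017716, chr11:117849251-117855743), stood at 312 CPM in control and 317 CPM in mutant (1.01, 0.991 to 1.04). Ccnb2, cyclin B2, was at 1.02 and Cdc20, the activator of the same complex, at 0.988. Lower in the mutant, with intervals below 1, were Cenpf, a kinetochore protein (232 and 205 CPM; 0.885, 0.860 to 0.911), and Nusap1, a spindle protein (106 and 88.4 CPM; 0.837, 0.801 to 0.875).

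The phase state of the cell in which each member was read was then set from the other members of its phase, leaving the gene itself out. Rrm2, Gtse1 and Psrc1, the members past 1.5-fold in dermis, were counted in no such sum. G2M members were higher in mutant cells with none of the others and mostly lower in mutant cells with many. With 0 UMIs of the others, 16 members had at least 20 UMIs, 9 had a ratio of mutant to control with its interval above 1 and 0 below, and the median ratio was 1.64. With 1 or 2 UMIs of the others, 6 of 17 intervals lay above 1 and 1 below (median 1.19). With 3 or more, 1 of 18 lay above and 11 below (median 0.892). For S members the intervals above and below 1 numbered 2 and 0 of 19 (median 1.03), 9 and 1 of 21 (median 1.22) and 8 and 4 of 22 (median 1.09).

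Psrc1 showed the widest gap between states. In dermal cells with no UMI of the other G2M genes, Gtse1 not counted, Psrc1 stood at 2.29 CPM of the thinned UMIs in control (26 UMIs in 3782 cells). In mutant it stood at 38.5 CPM (181 UMIs in 1566 cells), 16.8-fold (11.1 to 26.4). With 1 or 2 UMIs of the others the values were 3.11 and 24.2 CPM (7.80, 4.44 to 14.6). With 3 or more they were 49.3 and 51.9 CPM (1.05, 0.912 to 1.21). In control dermis Psrc1 was thus read mostly in cells with other G2M transcripts, and in mutant dermis also outside them.

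Gtse1 was read on few UMIs. Without the others it had 7 UMIs in control and 23 in mutant (0.617 and 4.90 CPM; 7.94-fold, 3.30 to 21.9), with 1 or 2 others 2 and 12 UMIs (9.36-fold, 2.08 to 86.1), and with 3 or more 11.3 and 18 CPM (1.60, 1.22 to 2.10). Rrm2 was higher in every state, at 11.2 and 24.1 CPM without other S UMIs (2.16, 1.22 to 3.77), 20.5 and 35.0 CPM with 1 or 2 (1.71, 1.34 to 2.16) and 95 and 124 CPM with 3 or more (1.31, 1.21 to 1.41). Top2a differed in cells without the others (1.71, 1.33 to 2.19) and hardly in those with 3 or more (472 and 494 CPM; 1.05, 0.998 to 1.10).

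**Figure D3:**
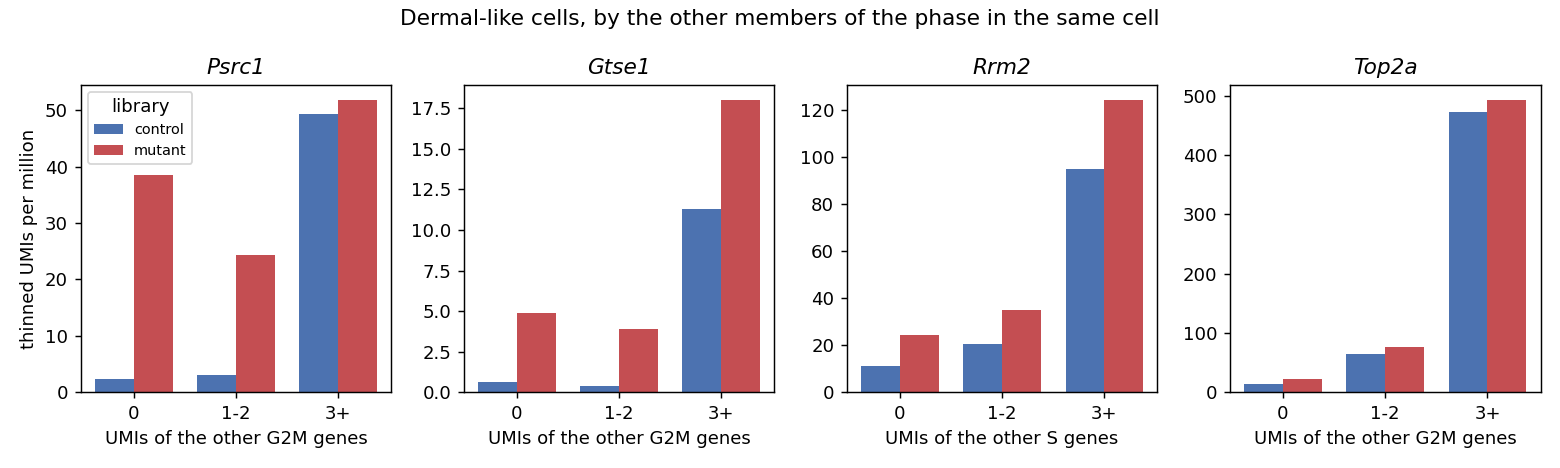
CPM of thinned UMIs (vertical axes) of Psrc1, Gtse1, Rrm2 and Top2a in control and mutant dermal cells. Cells are split by the UMIs of the other members of the same phase (0, 1 to 2, 3 or more), with Rrm2, Gtse1 and Psrc1 in no sum. Intervals are not drawn. Psrc1 stands at 2.29 CPM in control and 38.5 CPM in mutant cells with 0 others, and at 49.3 and 51.9 CPM with 3 or more.

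In cells with 3 or more UMIs of the others, Birc5 (0.781, 0.748 to 0.815), Cenpf (0.742), Nusap1 (0.703, 0.651 to 0.758), Cdc20 (0.779), Ccnb2 (0.757) and Ube2c (0.862) were all lower in the mutant. Ccnb2 was the reverse in cells without the others, at 8.52 CPM in control and 20.2 CPM in mutant (2.37, 1.77 to 3.16). Whether more free RNA in the mutant library adds to the values in cells without other members was not tested.

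Psrc1 and Gtse1 also belong to a list of 14 genes known to be induced by p53. Of the 12 that were measured in dermis, 11 were higher in the mutant at least 1.5-fold (4.06% of all genes), with a median log2 ratio of 1.73. Ccng1, cyclin G1, stood at 14.8 CPM in control and 70.0 CPM in mutant (4.73-fold), and Phlda3, an inhibitor of Akt, at 42.1 and 172 CPM (4.08-fold). Mdm2, the ubiquitin ligase of p53, was at 1.41. By the same rule, 0 of 8 measured genes of the list were higher in epidermis and 0 of 6 in muscle, where 3.43% and 2.06% of all genes were. In macrophage-like cells 1 of 4 measured was higher (4.42% of all genes were), Aen, a nuclease, at 17.7 and 27.4 CPM (1.55, 1.12 to 2.16). Cdkn1a stood there at 21.5 and 33.1 CPM (1.54, 1.15 to 2.07). The list was drawn up with earlier results of these libraries known, so it is not independent evidence of its direction.

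Cdkn1a, the p21 inhibitor of cyclin-dependent kinases and also a p53 target, stood at 8.43 CPM in control and 167 CPM in mutant dermis, 19.7-fold (18.1 to 21.6). Of the 5 measured inhibitors of 11 listed, Btg2 was also higher (26.6 and 59.7 CPM, 2.24-fold), although it is at the same time a gene of the stress list, and Cdkn1b, p27, was lower (20.2 and 12.1 CPM, 0.600). Of 11 measured cyclins and kinases of G1 and entry into S, 3 were higher: Ccnd1 (180 and 365 CPM, 2.03-fold) and Ccnd2 (1.53-fold), D-type cyclins that open the way out of G1, and Ccne1 (49.6 and 93.0 CPM, 1.87-fold), an E-type cyclin. Of further genes of the phases, 2 of 19 measured further S genes were higher, Atad2 (82.0 and 129 CPM, 1.58-fold) and Mcm10 (8.29 and 13.4 CPM, 1.62-fold), and 1 of 32 further G2M genes, Rangap1 (1.51-fold). The median log2 ratios of these lists were 0.07 and 0.10.

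Within mutant dermis, cells with a UMI of Cdkn1a held fewer S UMIs than the others. The S sum averaged 4.10 in the 1121 cells with and 5.12 in the 3693 cells without (0.801, 0.775 to 0.827), and the share with at least 3 S UMIs was 55.0% and 73.1%. By Cdkn1a UMIs of 0, 1, 2, 3 and 4 or more, the S mean was 5.12, 4.88, 3.85, 3.72 and 3.11, and the G2M mean 5.59, 6.11, 5.83, 6.0 and 5.09. The median depth before thinning moved with it, from 6263 UMIs at 0 to 4815 at 4 or more, and its part was not tested. For G2M the mean (1.04) and the share with at least 3 UMIs (39.9% against 48.9%) differ in direction, so no order is read. The G2M sum includes Psrc1 and Gtse1, which were themselves higher in mutant cells with Cdkn1a UMIs, as given below. Their part in that mean was not tested. In control dermis the 187 cells with a Cdkn1a UMI had a higher S mean (5.72 against 4.27, ratio 1.34, 1.26 to 1.42). Their G2M mean was lower (0.916, 0.855 to 0.980) while the share with at least 3 G2M UMIs was 38% against 36.3%, so no order is read there.

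Psrc1 followed Cdkn1a in mutant dermis. It stood at 24.3 CPM (21.5 to 27.4) in cells with 0 Cdkn1a UMIs, 69.7 CPM (56.5 to 85.0) with 1 and 119 CPM (104 to 135) with 2 or more. In control cells it stood at 19.5 (17.8 to 21.3), 19.0 (8.68 to 36.0) and 23.0 CPM (2.78 to 83.0). The control values with Cdkn1a rest on 9 Psrc1 UMIs in 158 cells and 2 in 29 cells, so no order is read there. Gtse1 stood at 8.67, 14.4 and 19.8 CPM in the same mutant cells. In control cells it stood at 4.43, 2.11 and 23.0 CPM, with only 1 UMI and 2 UMIs behind the values with Cdkn1a. Rrm2 did not follow Cdkn1a in mutant dermis, at 95.8, 108 and 77.6 CPM.

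Mutant dermal cells with a UMI of Foxd1, Gal or Sox18, genes known from the dermal condensate, had a lower S sum at 3000 UMIs, but its direction depended on the setting. These 1123 cells averaged 4.52 S UMIs (4.40 to 4.65) and the other 3691 cells 4.99 (4.92 to 5.06), a ratio of 0.907 (0.879 to 0.935), with at least 3 S UMIs in 61.8% and 71.0%. By UMIs of these genes of 0, 1, 2, 3 and 4 or more, the S mean was 4.99, 5.05, 4.47, 4.04 and 3.78. The ratio was 1.04 at 5000 UMIs per cell and 1.05 (1.01 to 1.09) in cells without a Cdkn1a UMI, against 0.816 (0.770 to 0.865) in cells with one. Cdkn1a itself stood at 110 CPM without and 488 CPM with condensate genes, 4.45-fold.

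For the G2M sum the same cells averaged 6.05 against 5.52 UMIs (1.10, 1.07 to 1.13), while the share with at least 3 was 45.9% against 47.1%, so no order is read. No UMI of either phase was found in 5.88% of cells with and 2.60% of cells without condensate genes. Of the 40 members, 0 differed 1.5-fold (13.2% of genes measured did). The median log2 ratio was -0.13 for S (6 of 22 above 1) and 0.15 for G2M (14 of 18 above 1), against 0.03 over all genes. Psrc1 had the widest ratio, at 37.7 CPM without and 54.6 CPM with (1.45). A UMI of these genes was in 23.3% of mutant and 0.496% of control dermal cells, 0.213% of mutant epidermal cells and 0.144% of mutant muscle cells, classes that should lack them.

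Lef1, a Wnt effector of upper dermis, went with both sums in the control and with a lower S sum in the mutant. In control dermis the 590 cells with a Lef1 UMI averaged 5.31 S UMIs against 4.22 in the other 7871 (1.26, 1.21 to 1.3) and 8.03 G2M UMIs against 4.81 (1.67, 1.62 to 1.72). Shares with at least 3 UMIs were 71.0% and 57.9% for S and 55.3% and 35.0% for G2M. In mutant dermis the 666 cells with a Lef1 UMI averaged 4.32 S UMIs against 4.97 (0.868, 0.835 to 0.903), with at least 3 in 59.9% and 70.3%. Leaving out cells with a Cdkn1a UMI, a setting added after seeing the data, gave an S ratio of 1.08, so its direction depended on that setting. The cells left out also differed in depth and in condensate genes, and the part of each was not tested. The G2M mean of the 666 cells was 6.54 against 5.50 (1.19, 1.15 to 1.23), but at least 3 G2M UMIs were in 43.1% against 47.4%, so no order is read.

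By member, control Lef1 cells had 14 of 17 measured G2M members and the S member Tyms at least 1.5-fold higher and 0 lower, where 7.13% of genes were higher and 7.1% lower. Aurkb stood at 36.9 CPM without and 75.7 CPM with Lef1 (2.05-fold), Ube2c at 248 and 442 CPM (1.78-fold), Top2a at 175 and 275 CPM (1.57-fold) and Tyms at 158 and 244 CPM (1.54-fold). Kif11 (1.95), Tpx2 (1.81) and Cenpf (1.79) were similar, and Bub1 (1.46), Ccnb1 (1.34) and Psrc1 (1.27) stayed under the limit. The median log2 ratio was 0.74 over G2M and 0.32 over S members, against 0.04 over all genes. In mutant Lef1 cells only Gtse1 (9.64 and 17.5 CPM; 1.82, 1.21 to 2.67) and Psrc1 (36.6 and 73.1 CPM; 2.0, 1.65 to 2.41) of the 40 were past the limit, where 11.1% of genes were higher and 8.25% lower. Gtse1 was measured only through the side with Lef1, so it could not be counted as lower. The medians in mutant Lef1 cells were -0.27 for S and 0.34 for G2M, against 0.07 over all genes, and Cdk1 stood at 142 CPM without and 101 CPM with Lef1 (0.710).

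Lef1 and condensate genes were then read together in the mutant, at 3000 UMIs and with cells with a Cdkn1a UMI included, although the S ratio of condensate genes depended on both of these settings and that of Lef1 on the second. Cells with both genes averaged 3.81 S UMIs (427 cells) against 4.96 in cells with condensate genes alone (696 cells), a ratio of 0.767 (0.723 to 0.814). At least 3 S UMIs were in 54.6% and 66.2% of them. Among cells without condensate genes the S ratio for Lef1 was 1.05 (0.991 to 1.11). Among cells without Lef1 the S ratio for condensate genes was 0.998 (0.962 to 1.04), although at least 3 S UMIs were in 66.2% with and 71.1% without them. The differences between these ratios were not tested. The G2M mean was higher with Lef1 in cells without condensate genes (1.40, 1.33 to 1.47), with at least 3 UMIs in 53.6% against 46.6%. In cells with condensate genes its ratio was 0.984 (0.937 to 1.03), while at least 3 G2M UMIs were in 37.2% with and 51.3% without Lef1. In the control the 42 cells with a condensate gene had 1.10 G2M UMIs on average against 5.05 (0.217, 0.159 to 0.289), with an S mean of 4.24. A Sox18 UMI was in 23 control dermal cells, Foxd1 in 11 and Gal in 8. Whether these are condensate cells was not tested.

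Mutant dermal cells with a UMI of Hhip, a Hedgehog target that was at 145 CPM in mutant and 4.30 CPM in control dermis, held somewhat more of both phases. The 1283 cells with Hhip averaged 5.12 S UMIs against 4.79 in the other 3531 (1.07, 1.04 to 1.10) and 6.37 G2M UMIs against 5.38 (1.18, 1.15 to 1.22). At least 3 G2M UMIs were in 51.2% and 45.2%. By Hhip UMIs of 0, 1, 2, 3 and 4 or more the G2M mean was 5.38, 6.33, 6.06, 7.27 and 7.02. At 5000 UMIs per cell the ratios were 1.02 (0.995 to 1.04) and 1.05. Aurka alone of the 40 was past 1.5-fold (33.7 CPM without, 54.6 CPM with; 1.62, 1.36 to 1.93), where 1.54% of genes were higher and 2.81% lower. The median depth before thinning was 6830 UMIs with and 5812 without Hhip, and its part was not tested. In the control the 97 cells with an Hhip UMI averaged 5.60 S UMIs (1.31, 1.20 to 1.42 over the rest) and 5.97 G2M UMIs (1.19, 1.09 to 1.29). The split by Ptch1, another Hedgehog target, gave a lower S mean in the mutant (0.961, 0.936 to 0.986) and a higher G2M mean (1.16, 1.13 to 1.19), and in the control ratios of 0.968 (0.889 to 1.05) and 1.03 (0.953 to 1.11). For the 371 mutant cells with a YFP UMI the ratios were above 1, at 1.12 (1.07 to 1.17) for S and 1.05 (1.01 to 1.10) for G2M.

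**Figure D4:**
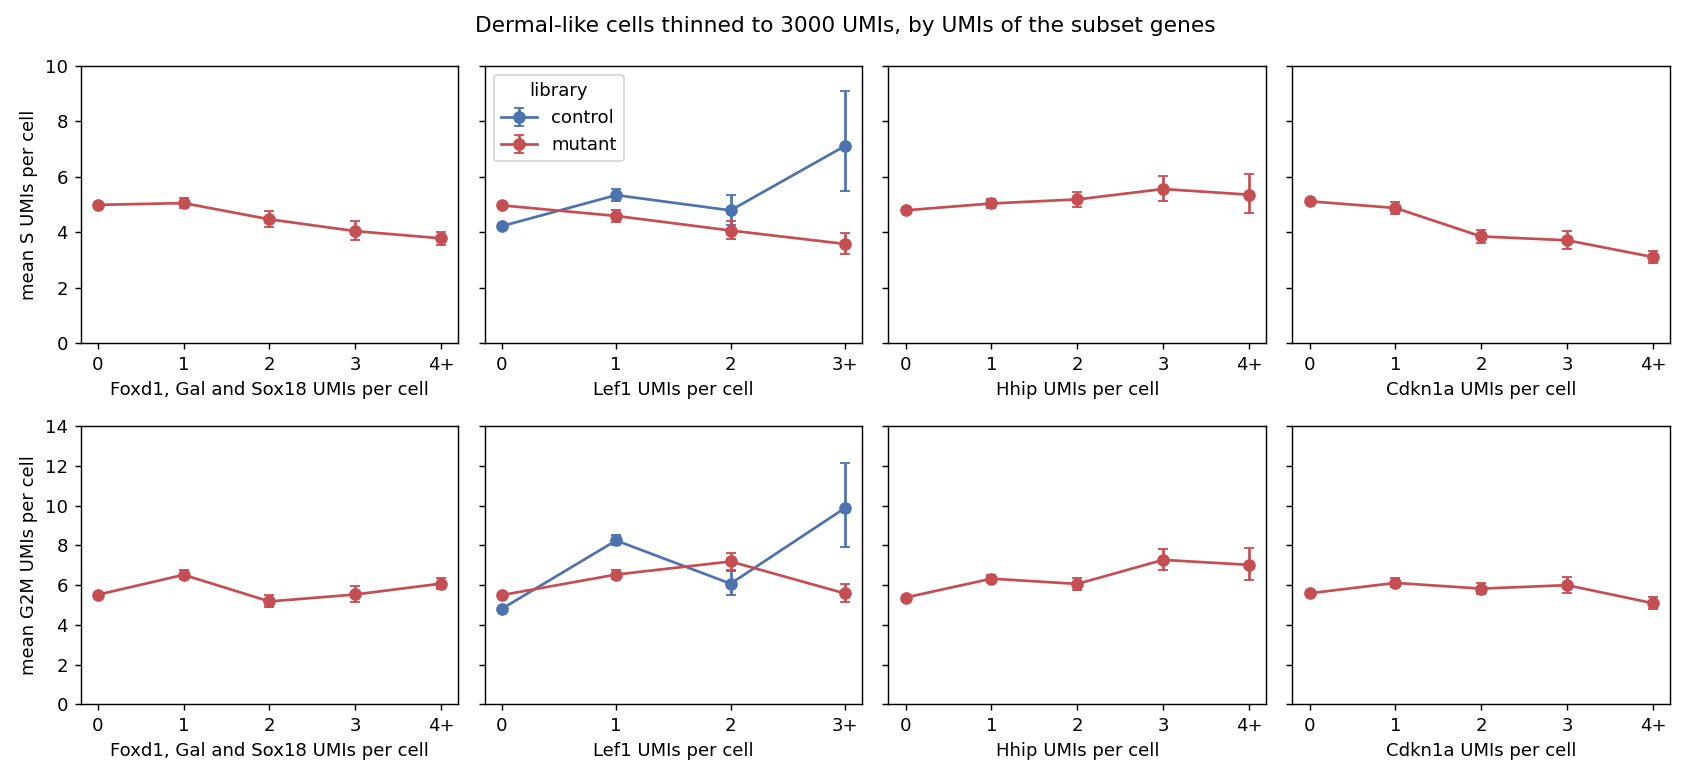
Mean S (top) and G2M (bottom) UMIs per dermal cell after thinning to 3000 UMIs, by the UMIs of condensate genes, Lef1, Hhip and Cdkn1a in the cell, with 95% exact Poisson bars. The control is drawn for Lef1 only; the mutant S mean goes from 5.12 at 0 Cdkn1a UMIs to 3.11 at 4 or more.

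Against control cells, mutant cells without condensate genes still had higher sums (1.16, 1.14 to 1.18 for S and 1.09, 1.07 to 1.11 for G2M). The gap was wider for the 929 mutant cells with Hhip and without condensate genes set against the 8322 control cells without either, at 1.24 (1.21 to 1.28) for S and 1.25 (1.22 to 1.29) for G2M. That comparison took cells with Hhip from the mutant only. The 97 control cells with an Hhip UMI averaged 5.60 S and 5.97 G2M UMIs, against 5.33 and 6.32 in the 929 mutant cells. Cells with Lef1 were lower in the mutant, with mutant over control at 0.814 (0.773 to 0.856) for S and 0.814 (0.781 to 0.848) for G2M, against 1.18 (1.16 to 1.20) and 1.14 (1.13 to 1.16) in cells without Lef1. In cells without condensate genes Gtse1 had a ratio of 2.34 (1.79 to 3.07), Psrc1 of 1.93 and Rrm2 of 1.55, the members past the limit there (4.11% of genes were higher and 4% lower).

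Across the 10 classes of cells, the S sum in the control was lowest in erythroid-like cells (2.76 UMIs per cell) and endothelial-like cells (3.73), followed by dermal-like (4.30), glia-like (4.48) and melanoblast-like cells (4.62), which did not differ beyond counting error. Macrophage-like (5.41), muscle-like (5.68), epidermal-like (5.70) and mural-like cells (5.77) lay close together, and the class of mast and other blood cells was highest (6.58), although its interval overlapped that of mural-like cells. Erythroid-like cells had the lowest level of 17 of 22 S and 15 of 18 G2M members in the control. Hemoglobin stood at 358351 CPM in these control cells, which leaves fewer of the 3000 UMIs for other genes. Dermal markers stood at 5684 CPM in them. The part of either in the low rank was not tested.

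Between the libraries, the S mean was higher in the mutant with an interval above 1 in 7 of the 10 classes. It was lower in muscle-like cells (5.32 and 5.68; 0.937, 0.898 to 0.977) and not distinct from level in mast and other blood (0.970, 0.882 to 1.07) and glia-like cells (1.05, 0.964 to 1.15). The ratio was 1.14 (1.09 to 1.19) in epidermal-like, 1.19 (1.11 to 1.26) in macrophage-like and 1.24 (1.11 to 1.40) in endothelial-like cells. The dermal ratio of 1.14 lay within the range of the other classes. The G2M mean was higher with an interval above 1 in 4 of the 10 classes, which were dermal-like, mural-like (1.12, 1.01 to 1.24), melanoblast-like (1.34, 1.17 to 1.54) and erythroid-like cells (1.69, 1.42 to 2.02). In epidermal-like (0.981, 0.943 to 1.02) and muscle-like cells (0.965, 0.927 to 1.0) the intervals spanned 1. The melanoblast-like class rests on 76 control and 46 mutant cells and the erythroid-like on 58 and 210. Erythroid-like cells also differed in hemoglobin (358351 CPM in control, 290083 CPM in mutant) and held dermal markers at 5684 and 4690 CPM. Whether these bear on the erythroid-like ratios was not tested. In melanoblast-like cells the S ratio (1.19, 1.01 to 1.40) had no counterpart in the share with at least 3 S UMIs, at 63.2% in control and 63.0% in mutant.

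**Figure D5:**
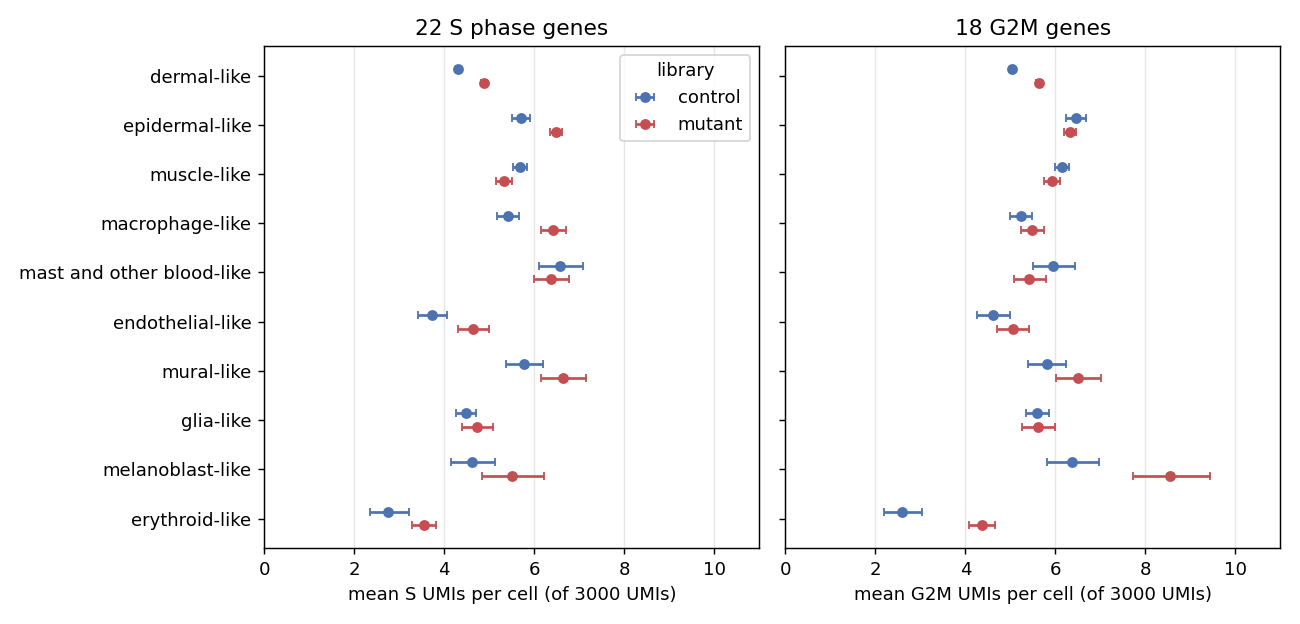
Mean UMIs per cell of the 22 S genes (left) and the 18 G2M genes (right) in 10 cell classes of the control and the mutant library, after thinning to 3000 UMIs, with 95% exact Poisson bars. Erythroid-like cells are lowest for S (2.76 in control, 3.54 in mutant), and the mutant mean is lower than the control for muscle-like cells (5.32 against 5.68).

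In epidermis 0 of 39 measured members differed 1.5-fold (6.03% of genes did), though 22 of 22 S ratios lay above 1 with a median log2 ratio of 0.20. The G2M median was 0.03 with 9 of 17 above 1. In muscle 0 members differed (2.98% of genes did), with medians of -0.06 for S and -0.09 for G2M. Muscle-like cells differed by state more than by library. Cells with Pax7, the progenitor factor, and no Myog had 7.06 S UMIs in control and 7.70 in mutant, and cells with at least 3 UMIs of Myog, the factor of differentiation, 2.48 and 2.45. The latter were 241 of 976 control and 239 of 695 mutant muscle-like cells. Within each state the intervals of the control and mutant S means overlapped, and muscle-like cells outside both states were not split further. In the 47 mutant and 633 control muscle-like cells without a hemoglobin UMI, the G2M ratio was 0.603.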

How the data were processed

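UMI counts per gene and cell barcode were used as the authors deposited them, from 10x 3′ libraries processed with Cell Ranger 5.0.1 on build mm10, per the submitters' processing notes and file headers. The libraries held 13566 (control) and 11909 (mutant) barcodes, 109629368 and 73809828 UMIs, and medians of 7217 and 5577 UMIs per barcode; 48 barcodes were in both. Cells with at least 1000 genes and at most 10% mitochondrial UMIs were kept, doublets were called by the Scrublet routine of scanpy 1.11.5 (4.89% and 3.06% removed), and 11527 and 8514 cells remained. Cells were clustered (2000 variable genes without the cycle genes among them, 30 components, Leiden resolution 1) and clusters named from marker lists. The naming rule was changed after the clusters were seen: a class became a candidate only with at least 3 detected markers, which made dermal a cluster of 978 mutant cells and 0 control cells, led by Gal and Foxd1, whose best score of any class was chondrogenic. Sums were read after thinning each cell to 3000 UMIs. CPM are relative to all UMIs of the same cells, and the member ratios in dermis use all UMIs while those by state and subset use thinned UMIs. Intervals were computed with scipy 1.17.1: exact Poisson for means and CPM, Clopper-Pearson for shares, exact binomial for ratios, at 95%. Free RNA is not removed.

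The members and lists were chosen with earlier results of these data known. Genes were described sample by sample where they differed 1.5-fold in dermis or in a mutant dermal subset, or were among the 3 most abundant of their phase. Gene coordinates are from GENCODE on GRCm38 and promoters from RefSeq, GRCm38.p6. The scripts were tested on simulated data. No test between libraries was made, since each group had 1 library. Alternatives were another thinning depth, no thinning, other filters, gates read from all UMIs, and 3 added after seeing the data: leaving out cells with a hemoglobin UMI, leaving out cells with a Cdkn1a UMI, and further phase genes in place of the members. The minimum of 20 contractile UMIs was also chosen after seeing the data.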

Additional observations from a re-analysis of the deposited data

Results flagged for a closer look

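The mutant over control ratio of the S sum went in opposite directions in pairs of classes, and the difference was not tested in any of them. It was 1.14 in dermal-like and 0.937 in muscle-like cells, 1.14 in epidermal-like and 0.937 in muscle-like cells, and 1.19 in macrophage-like and 0.937 in muscle-like cells. Within dermis, the S sum of cells with a Lef1 UMI over those without was 0.868 in the mutant and 1.26 in the control, a difference that was not tested either.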

How the results depend on the processing

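No paired analysis was possible because each group had 1 library, and for the same reason no replicate could be left out. Across the other settings run from the start, 98 values stayed close, 27 moved and 1 reversed. Under the alternatives added after seeing the data, 18 values stayed close, 22 moved and 2 reversed. The cause was not tested. At 5000 UMIs per cell the ratios were 1.21 (dermal S), 1.24 (dermal G2M), 1.04 (condensate S, reversed), 1.13 (condensate G2M), 0.957 and 1.35 (mutant Lef1 S and G2M), 1.02 and 1.05 (Hhip S and G2M) and 1.03 (epidermal G2M). At 2000 UMIs they were 1.09 (dermal G2M), 1.06 (condensate G2M) and 1.83 (control Lef1 G2M). Without thinning they were 1.08 (dermal G2M), 0.968 (condensate S) and 0.913 (mutant Lef1 S). Keeping the cycle genes in the clustering gave 1.09 (dermal G2M), and leaving hemoglobin out of the totals 0.949 (condensate S). With gates read from all UMIs they were 0.999 and 1.18 (condensate S and G2M), 0.949 and 1.38 (mutant Lef1), 1.13 and 1.31 (Hhip), and 1.33 and 2.02 (control Lef1). Without cells with a hemoglobin UMI they were 1.29 (condensate G2M), 0.951 (mutant Lef1 S), 1.10 and 1.13 (Hhip), 1.31 (control Lef1 S), 1.20 (epidermal S), and 0.861 and 0.603 (muscle S and G2M). Without cells with a Cdkn1a UMI they were 1.20 (dermal S), 1.05 and 1.19 (condensate, S reversed), 1.08 and 1.32 (mutant Lef1, S reversed), 1.11 and 1.23 (Hhip) and 1.74 (control Lef1 G2M). With further genes in place of the members they were 1.18 (dermal S), 0.943 and 1.02 (condensate), 0.917 and 1.06 (mutant Lef1), 1.10 and 1.12 (Hhip) and 1.48 (control Lef1 G2M). The 3 members past 1.5-fold in dermis became 1 with 10 CPM added, 1 with at least 50 CPM on either side, and 7 at 1.3-fold. The shares of all genes past these limits are not given here, so the counts cannot be read against a background. The 2 libraries limit what can be said of conditions, and depth limits the reading of low members such as Gtse1.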
